A study of Arabidopsis thaliana with 12 samples.

Results

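A set of 10 calmodulin-like genes of Arabidopsis, grouped here as touch-induced, was followed in rosette leaves. They were taken by gene identifier: *TCH2* (AT5G37770), *TCH3* (AT2G41100), *CML23* (AT1G66400), *CML37* (AT5G42380), *CML38* (AT1G76650), AT1G76640, AT3G01830, *CML41* (AT3G50770), *CML42* (AT4G20780) and AT5G39670. The list gave the working names CML39, CML40 and CML45 to AT1G76640, AT3G01830 and AT5G39670. RefSeq gave these genes no such symbol, so the identifiers are used. Whether CML45 is the right name for AT5G39670 was not settled. These were 10 of the 36061 named genes in the table, of which 19681 had enough counts to be tested, and 9 of the 10 genes were among those tested. The exception was AT1G76640. No group of the study was described as touched or wounded on purpose, so the name describes what is known of the genes and not a treatment. The methods had seedlings moved to soil and leaves harvested, and an effect of this handling was not tested.

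The RNA-seq libraries came from Arabidopsis plants that overexpressed *MtPHD6*, a PHD-finger gene of *Medicago truncatula*, and from wild type (WT), each with and without drought. There were 3 libraries in each of 4 groups: transgenic plants after drought (PHD6-drought), WT after drought (WT-drought), transgenic plants without drought (PHD6-control) and WT without drought (WT-control). The methods described 12-day-old plants that went without water for 7 d, whereas the labels gave 10 d on the drought and control libraries alike. All transgenic plants carried *MtPHD6* in the vector pCAMBIA1301S, as homozygous T3 lines. Which line each library came from was not given, and the transgene was not analysed here because the table holds Arabidopsis genes. The methods called the 3 libraries of a group biological replicates and described leaves taken from several containers of plants, without saying which containers went into which library. In whole leaves, fewer cells of a type and less RNA per cell cannot be told apart.

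Calmodulin and calmodulin-like (CML) proteins bind calcium through EF-hands, helix-loop-helix units in which acidic residues of the loop hold the ion. When calcium rises in a plant cell, binding changes the shape of the protein and with it the partners it can hold, so that a CML passes the calcium signal to other proteins. The *TCH* genes are named for mRNAs that build up within minutes after a plant is touched, and many CML mRNAs also respond to wounding, pathogens, cold or darkness.

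The 10 genes differed in how many matches of an EF-hand loop pattern their coding sequence held. Loops outside this strict pattern were not counted. A 12-codon loop pattern was found 6 times in *TCH3*, 4 times each in *TCH2* and *CML23*, 3 times each in *CML37*, *CML38*, AT1G76640, *CML41* and *CML42*, and once each in AT3G01830 and AT5G39670. The first matched loop of 4 genes is shown to compare the close pair *TCH2* and *CML23* with both genes that had 1 match. Sequences were read from the TAIR10.1 genome (RefSeq), 5′ to 3′ along the coding strand, and capitals mark the codons at loop positions 1, 3, 5 and 12, whose residues bind calcium. The positions were chr5:14999450-14999485 (minus strand) for *TCH2*, chr1:24771225-24771260 (minus strand) for *CML23*, chr3:296498-296533 (plus strand) for AT3G01830 and chr5:15883702-15883737 (plus strand) for AT5G39670, all exonic and coding.
TCH2: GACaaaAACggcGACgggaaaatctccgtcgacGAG
CML23: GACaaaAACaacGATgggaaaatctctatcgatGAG
AT3G01830: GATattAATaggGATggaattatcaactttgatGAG
AT5G39670: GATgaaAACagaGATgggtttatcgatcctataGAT
The *TCH2* and *CML23* coding sequences were 81.2% identical over 473 aligned bases, with a longest identical stretch of 21 bases. *CML38* and AT1G76640 lie 883 bp apart on chromosome 1 and were 83.4% identical over 471 bases, with a longest identical stretch of 34 bases. Both stretches are shorter than the reads the methods describe, so no full-length read lay wholly within one. *TCH3*, the longest of the 10 proteins with 324 residues, repeated itself: loops 1 and 3 had the same coding bases, as did loops 2 and 4.

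CGCGTT and ACGCGT, motifs bound by the calmodulin-binding transcription activators (CAMTA), were searched on both strands in the 300 bases before each transcription start. They occurred in 2 of the 10 windows, *TCH2* and *CML23*, against 3.87% of 27048 promoters. Other forms of the CAMTA motif were not searched, so the other windows may hold such forms. *TCH2* held 4 matches of CGCGTT and 2 of ACGCGT, and *CML23* held 1 of each, where the 2 motifs can overlap. *CML37* and *CML41* had no match of any motif searched. The windows of *TCH2* and *CML23* are printed with the CAMTA-type matches in capitals, followed by that of *CML41*. They lie at chr5:14999620-14999919 (minus strand) for *TCH2*, chr1:24771394-24771693 (minus strand) for *CML23* and chr3:18873611-18873910 (plus strand) for *CML41* in TAIR10.1.
TCH2: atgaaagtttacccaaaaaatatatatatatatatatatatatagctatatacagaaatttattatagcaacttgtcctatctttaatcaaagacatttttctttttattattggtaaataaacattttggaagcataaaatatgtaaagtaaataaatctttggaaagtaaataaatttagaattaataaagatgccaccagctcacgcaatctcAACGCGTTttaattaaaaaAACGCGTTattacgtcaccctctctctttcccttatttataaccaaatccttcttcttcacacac
CML23: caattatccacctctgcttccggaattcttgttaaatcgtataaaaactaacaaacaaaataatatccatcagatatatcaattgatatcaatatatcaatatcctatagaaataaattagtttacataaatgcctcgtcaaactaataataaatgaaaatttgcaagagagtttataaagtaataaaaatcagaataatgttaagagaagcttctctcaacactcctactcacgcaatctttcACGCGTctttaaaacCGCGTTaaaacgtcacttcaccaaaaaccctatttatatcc
CML41: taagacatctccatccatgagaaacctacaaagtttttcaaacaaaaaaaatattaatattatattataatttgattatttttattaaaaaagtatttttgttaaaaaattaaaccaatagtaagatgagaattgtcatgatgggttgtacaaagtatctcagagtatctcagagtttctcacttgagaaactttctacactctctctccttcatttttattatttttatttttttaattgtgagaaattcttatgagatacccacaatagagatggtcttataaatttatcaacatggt
The matches formed 2 runs of 8 bases in *TCH2*, at 84 to 77 and 65 to 58 bases before the start, and 2 runs of 6 bases in *CML23*, at 56 to 51 and 41 to 36 bases before it. Just upstream of them, both genes carried the same 12 bases, ctcacgcaatct. Of the other motifs, TTGAC (the W-box core) occurred in 5 of the 10 windows against 50.4% of promoters, ACGTG (the core of the abscisic acid response element) in 2 against 25.6%, and CACGTG, which contains it, in 0 against 7.13%. CCGAC occurred in 0 windows against 13.9%, and the Alfin1-type motifs GTGGNG and GNGGTG in 1 window each against 20.3% and 15.6%. These are matches of letters and were not tested as binding sites. The window of *TCH3* overlapped the annotated genes AT2G41090 and AT2G09220, and that of AT3G01830 overlapped AT3G01820. Part of these windows thus also belonged to another gene.

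**Figure D1:**
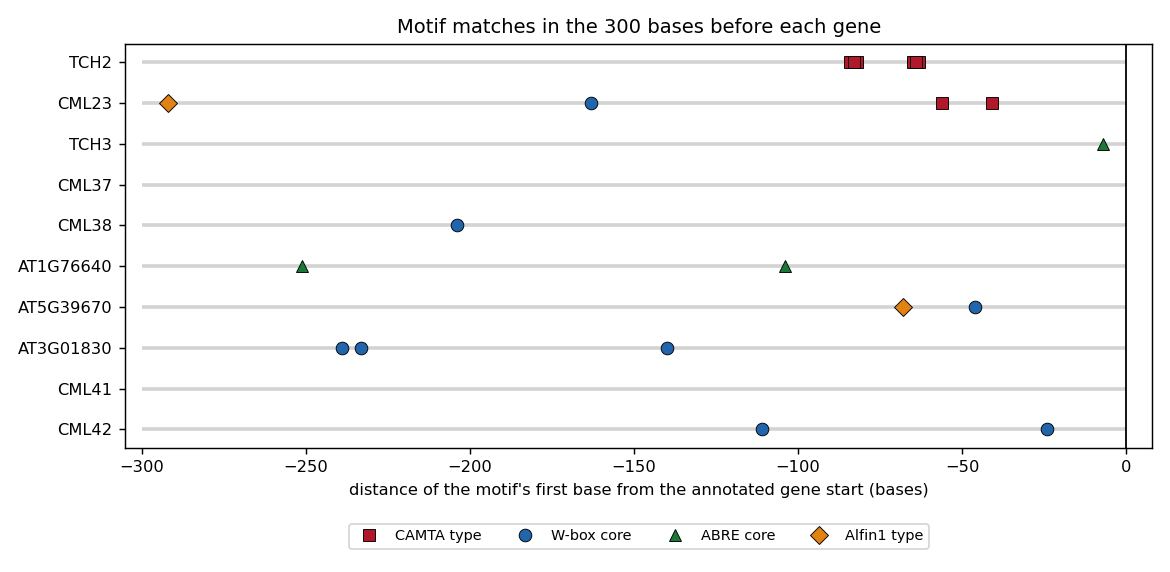
Positions of 4 motif types in the 300 bases before the start of each of the 10 genes, with the distance from the start in bases on the x axis and 1 row a gene. CAMTA-type matches lie within 84 bases of the start of *TCH2* and *CML23* and occur in none of the other 8 windows.

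Each library held 17839925 to 24717357 counts over named genes. Levels are given as CPM, a gene's counts for every 1000000 counts of its library, scaled over the 12 libraries, and differences as log2 fold changes with the standard error (SE) from edgeR's quasi-likelihood test, whose p-values were adjusted by the Benjamini-Hochberg method over all 19681 genes; a gene was called when the adjusted p was under 0.05. One control library of each genotype stood closer to another group than to its own: PHD6-control replicate 3 correlated best with WT-drought replicate 1 (r = 0.987 over genes, against 0.982 within its group), and WT-control replicate 3 with PHD6-control replicate 2 (0.981, against 0.980). Leaf mesophyll markers summed to 32998 to 54667 CPM, and guard-cell markers to 37.2 to 69.6 CPM. *SCR* gave most of the 27.8 to 34.4 CPM of the 4 root markers, while *IRT1* and *CASP1* stayed under 0.5 CPM. Flower markers summed to 2.1 to 12.4 CPM and seed markers to at most 0.219 CPM.

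*TCH2* encodes CML24, a touch-induced calcium sensor that also acts in the timing of flowering. It had 23.7, 24.9 and 20.6 CPM in PHD6-drought, against 60.8, 39.9 and 33.6 CPM in WT-drought. Without drought it had 155, 113 and 111 CPM in PHD6-control, against 36.8, 22.7 and 31.2 CPM in WT-control. The genotypes did not overlap under either condition, and they lay in opposite order. *TCH2* was 4.17-fold higher in PHD6-control than in WT-control (log2 2.06, SE 0.19, edgeR adjusted p = 0.0011), and lower in PHD6-drought than in WT-drought (log2 -0.95, SE 0.19, adjusted p = 0.0252). The second call was lost without PHD6-drought replicate 2 (adjusted p = 0.0688), PHD6-drought replicate 3 (0.0653) or WT-drought replicate 2 (0.0571). Drought lowered it in transgenic plants (log2 -2.45, SE 0.15, adjusted p = 6.62e-05). In WT the difference was 0.57 (SE 0.23, adjusted p = 0.13), and 0.55 with an adjusted p of 0.0104 when the replicate number was a block.

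*CML23*, the closest relative of *TCH2*, works with it in the control of flowering time. *CML23* had 2.43, 1.46 and 1.97 CPM in PHD6-drought, against 3.66, 2.43 and 2.71 CPM in WT-drought. In the watered plants it had 15.8, 6.72 and 6.49 CPM in PHD6-control, against 5.38, 2.17 and 5.10 CPM in WT-control. Again the genotypes did not overlap in either condition, though under drought the highest PHD6-drought and the lowest WT-drought library both rounded to 2.43 CPM, and neither difference passed the test. The log2 difference was -0.57 (SE 0.26, edgeR adjusted p = 0.228) under drought and 1.20 (SE 0.43, adjusted p = 0.185) without it. Drought lowered *CML23* in transgenic plants (log2 -2.30, SE 0.39, adjusted p = 0.00564). In WT the difference was -0.51 (SE 0.34, adjusted p = 0.345), and among the libraries left out in turn it passed the test, as a decrease, without WT-control replicate 2 (-0.84, adjusted p = 0.0257). Per kilobase of exon, the *TCH2* level was 2.97 to 8.34 times that of *CML23* in the 12 libraries, so *TCH2* was the higher of the pair in every library.

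*TCH3* encodes CML12, the large touch-induced CML with 6 loops, which binds the protein kinase PINOID. Its levels were 302, 391 and 440 CPM in PHD6-drought, against 336, 305 and 356 CPM in WT-drought. Without drought they were 303, 214 and 348 CPM in PHD6-control, against 75.7, 84.9 and 57.5 CPM in WT-control. WT-control was low and the other 3 groups overlapped one another. *TCH3* was 3.95-fold higher in PHD6-control than in WT-control (log2 1.98, SE 0.20, edgeR adjusted p = 0.00158), and drought raised it in WT (log2 2.19, SE 0.14, adjusted p = 5.82e-05). Under drought the genotypes differed by 0.19 (SE 0.13, adjusted p = 0.418), and drought against control in transgenic plants gave 0.39 (SE 0.19, adjusted p = 0.177).

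*CML38*, a wound-induced gene whose protein joins cytoplasmic RNA granules under low oxygen, was like *TCH3* lowest in WT-control, at a lower level and with the other 3 groups in another order. It had 3.50, 2.56 and 3.34 CPM in PHD6-drought, against 3.32, 2.77 and 3.93 CPM in WT-drought. Without drought it had 6.63, 3.34 and 7.19 CPM in PHD6-control, against 1.29, 0.905 and 0.344 CPM in WT-control. Every WT-control library was below every other library, which also held for *TCH3*, *CML37*, *CML42* and AT5G39670. The rise in PHD6-control over WT-control was 6.65-fold (log2 2.73, SE 0.44, edgeR adjusted p = 0.0106), the largest fold among the 9 tested genes in that comparison. Drought raised *CML38* in WT (log2 1.96, SE 0.38, adjusted p = 0.00797). In transgenic plants the difference was -0.87 (SE 0.29, adjusted p = 0.0638), and between the genotypes under drought it was -0.08 (SE 0.21, adjusted p = 0.878).

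*CML37*, a positive regulator of the defence against chewing insects, rested on few reads. It had 3.46, 2.78 and 6.95 CPM in PHD6-drought, against 2.39, 3.32 and 2.39 CPM in WT-drought. Its levels without drought were 2.18, 1.22 and 4.09 CPM in PHD6-control (46, 27 and 99 counts), against 0.968, 0.543 and 0.459 CPM in WT-control (18, 12 and 8 counts). The control groups did not overlap, but the 3 PHD6-control libraries lay far apart, with replicate 3 the highest. The difference of 1.92 (SE 0.50) did not pass the test (edgeR adjusted p = 0.0736). Drought raised *CML37* in WT (log2 2.04, SE 0.33, adjusted p = 0.0033), whereas it was 0.79 higher in PHD6-drought than in PHD6-control without passing (SE 0.46, adjusted p = 0.258).

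AT5G39670 encodes a protein with 1 loop match by this search, and RefSeq names it only as an EF-hand protein. It had 8.88, 10.4 and 17.1 CPM in PHD6-drought, against 6.15, 7.39 and 6.64 CPM in WT-drought. In the control groups it had 2.84, 2.89 and 7.19 CPM in PHD6-control, against 1.02, 1.09 and 1.32 CPM in WT-control. The genotypes did not overlap under either condition, with the transgenic plants above WT in both. It was 3.77-fold higher in PHD6-control than in WT-control (log2 1.91, SE 0.41, edgeR adjusted p = 0.0362), but the call was lost without PHD6-control replicate 3 (1.32, adjusted p = 0.0509) or without any WT-control library (0.095, 0.0941 and 0.114 without replicate 1, 2 and 3). Under drought the difference of 0.85 (SE 0.23, adjusted p = 0.0576) did not pass. Drought raised AT5G39670 in WT (log2 2.56, SE 0.19, adjusted p = 9.16e-05) and in transgenic plants (log2 1.48, SE 0.39, adjusted p = 0.0282). The second of these was lost without PHD6-drought replicate 2 (0.0594) or 3 (0.0879), or PHD6-control replicate 1 (0.0919) or 2 (0.0945). The gene overlaps *EMB2744* on the opposite strand, which had 11 to 39 counts a library and was called in no comparison.

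AT3G01830, the other gene with 1 loop match, had 3.76, 5.08 and 8.48 CPM in PHD6-drought, against 2.59, 4.91 and 3.08 CPM in WT-drought. It had 1.75, 0.721 and 3.31 CPM in PHD6-control, against 0.484, 1.54 and 0.172 CPM in WT-control. The genotypes overlapped in both conditions, and WT-control replicate 2 stood above the other WT-control libraries and above PHD6-control replicate 2. Drought raised it in WT (log2 2.21, SE 0.56, edgeR adjusted p = 0.0261). This call was lost without WT-drought replicate 2 (adjusted p = 0.111) or 3 (0.0707), or WT-control replicate 1 (0.0585) or 3 (1.77, 0.0515), and without WT-control replicate 2 the value was 3.39 (0.00186). In transgenic plants the difference of 1.56 (SE 0.48) did not pass (adjusted p = 0.0502), though it did without PHD6-drought replicate 1 (1.79, 0.0392) or PHD6-control replicate 3 (2.22, 0.0108). It overlaps *LYK2* on the opposite strand, which had 11 to 43 counts a library and was called in no comparison, and whether the counting told such strands apart was not given.

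*CML41* encodes a CML of plasmodesmata that promotes callose closure of these channels during immunity. It had 27.2, 48.1 and 50.9 CPM in PHD6-drought, against 46.9, 36.7 and 42.7 CPM in WT-drought. The control levels were 8.67, 1.76 and 7.61 CPM in PHD6-control, against 7.15, 10.3 and 9.0 CPM in WT-control. Every drought library was above every control library of either genotype. Drought raised *CML41* in transgenic plants (log2 2.80, SE 0.45, edgeR adjusted p = 0.00499) and in WT (log2 2.25, SE 0.14, adjusted p = 5.1e-05). Between genotypes it differed by 0.01 (SE 0.20, adjusted p = 0.992) under drought and by -0.56 (SE 0.46, adjusted p = 0.587) without it.

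*CML42*, which acts in trichome branching and as a negative regulator of insect defence, had the smallest span of group means among the 9 tested genes, 1.46-fold. It had 19.0, 17.8 and 20.5 CPM in PHD6-drought, against 19.6, 19.3 and 18.4 CPM in WT-drought. Its control levels were 19.6, 18.7 and 21.5 CPM in PHD6-control, against 17.2, 11.5 and 12.2 CPM in WT-control. All WT-control libraries were below every other library. The difference between PHD6-control and WT-control was 0.55 (SE 0.15, edgeR adjusted p = 0.0884) and with single libraries left out it passed without WT-control replicate 1 (0.74, 0.0118). Drought raised it in WT by 0.49 (SE 0.15, adjusted p = 0.0479), a call lost under 2 other scalings (0.0512 with DESeq2 size factors, 0.0561 with upper quartiles) and without WT-drought replicate 1 (0.135), 2 (0.142) or 3 (0.115), or WT-control replicate 2 (0.0886) or 3 (0.148). In transgenic plants drought against control gave -0.06 (SE 0.09, adjusted p = 0.677).

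AT1G76640, the neighbour of *CML38*, was at or near 0 in all libraries. It had 3, 1 and 2 counts in PHD6-drought, against 0, 1 and 0 counts in WT-drought. It had 0, 1 and 5 counts in PHD6-control, against 0, 0 and 2 counts in WT-control. Its highest level was 0.207 CPM, so no fold is given, and a difference was not detectable at this depth.

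**Figure D2:**
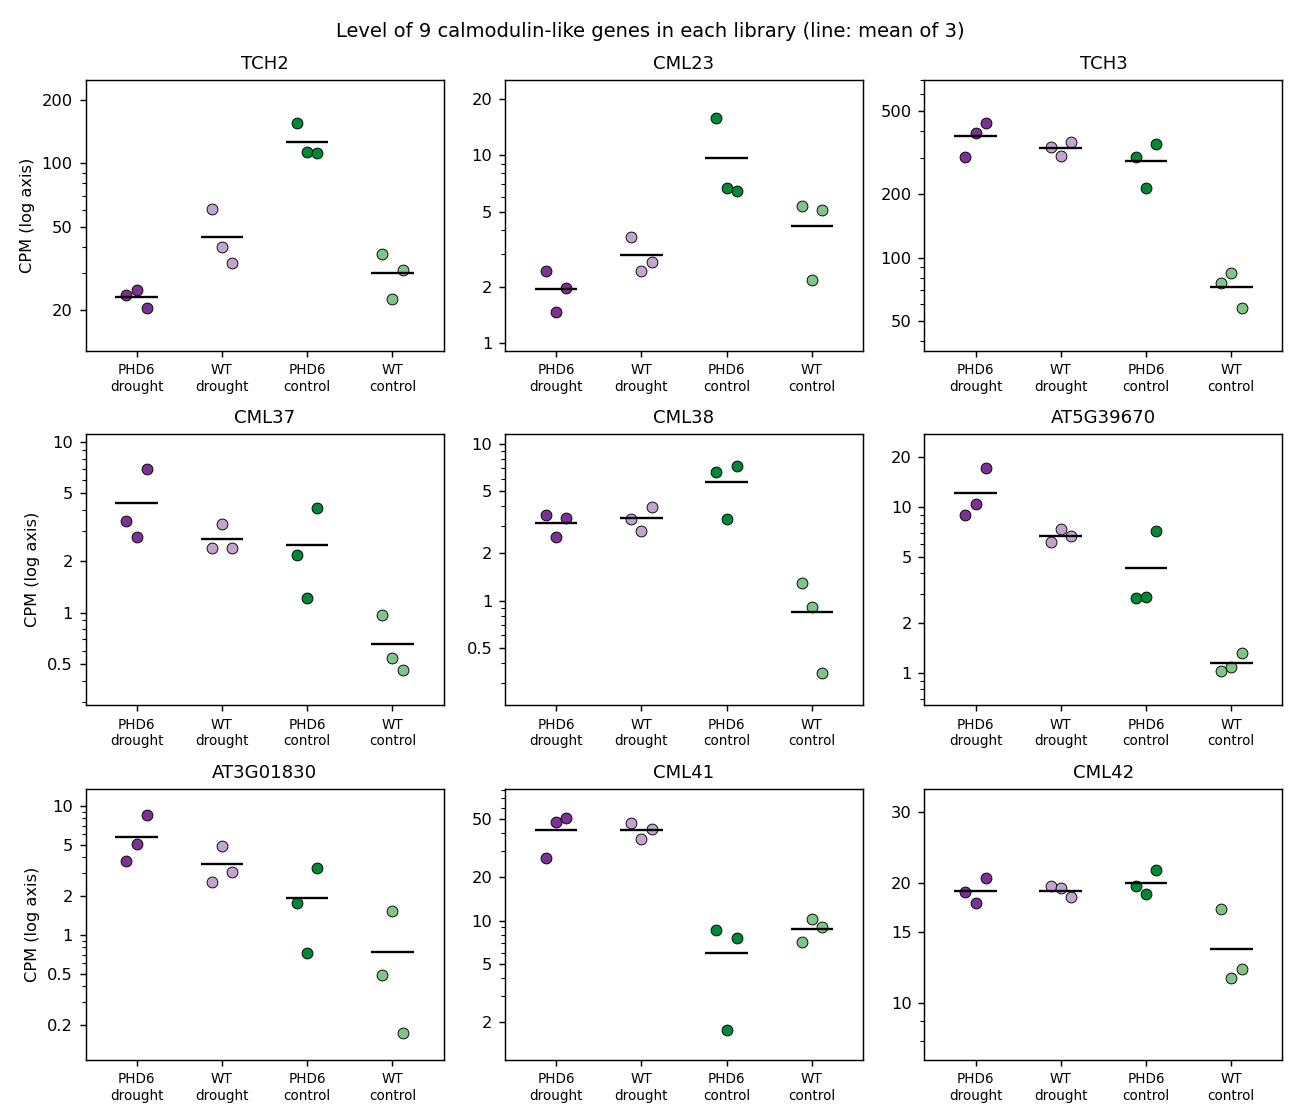
CPM of the 9 tested genes in each of the 12 libraries on a log axis, with the groups from left to right PHD6-drought, WT-drought, PHD6-control and WT-control; points are libraries and lines are means of 3. *TCH2* and *CML23* are highest in PHD6-control, and *CML41* separates drought from control libraries. *TCH3*, *CML37*, *CML38*, *CML42* and AT5G39670 have every WT-control library below all other libraries.

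In each group some libraries were more often the highest or lowest than others. Replicate 3 was the highest PHD6-control library for 6 of the 9 genes and the highest PHD6-drought library for 6 of 9. Replicate 2 was the lowest PHD6-control library for 6 of 9. *TCH2* did not share this: replicate 3 was its lowest library in both transgenic groups. In WT, replicate 1 was the highest WT-control library for 5 of 9 and the highest WT-drought library for 4 of 9. WT-control replicate 3 and WT-drought replicate 2 were each the lowest of their group for 4 of 9. The share over all genes was not computed.

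Of the 9 tested genes 4 (*TCH2*, *TCH3*, *CML38* and AT5G39670) rose in PHD6-control over WT-control and 0 fell, beside 4.26% of all tested genes called higher and 0.722% called lower. At an unadjusted p under 0.05, 7 of the 9 were higher and 0 lower, and DESeq2 also called 7 higher and 0 lower, where 18.1% of all genes had an unadjusted edgeR p under 0.05. The groups did not overlap for 7 of the 9, all with PHD6-control above WT-control, against 24.4% of all genes in either direction. The median of the 9 was 1.91 and that of all genes -0.02. *TCH2*, *TCH3* and *CML38* were called under every alternative with a test of this comparison that passed them through its filter, with adjusted p up to 0.00997, 0.00997 and 0.0452.

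In PHD6-drought 1 of the 9, *TCH2*, was lower than in WT-drought and 0 were higher, beside 3.89% and 2.65% of all genes. At an unadjusted p under 0.05, 1 was higher and 1 lower, as also in DESeq2, where 22.6% of all genes had such an edgeR p. The groups did not overlap for 3 of the 9 (*TCH2*, *CML23* and AT5G39670), against 28.4% of all genes. The medians were 0.01 for the 9 genes and 0.01 for all genes.

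Drought in WT raised 7 of the 9 genes and lowered 0, beside 12.2% of all genes raised and 7.18% lowered. At an unadjusted p under 0.05 (32.1% of all genes), 8 were higher and 0 lower, and DESeq2 called 7 higher and 0 lower. *TCH2* and *CML23* were the 2 not called in this fit, and the count raised was 8 with the replicate number as a block, which added *TCH2* (0.55, edgeR adjusted p = 0.0104). The groups of these 2 genes overlapped and those of the other 7 of 9 did not, against 37.6% of all genes. The median was 2.04, beside -0.01 for all genes.

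In transgenic plants drought raised 2 of the 9 (*CML41* and AT5G39670) and lowered 2 (*TCH2* and *CML23*), beside 9.49% and 12.7% of all genes. The groups did not overlap for 5 of the 9, against 41.2%. The median was 0.39, beside 0.02 for all genes. The count raised was 1 without PHD6-drought replicate 2 or 3 or PHD6-control replicate 1 or 2, each time through AT5G39670, and 4 with the replicate number as a block. Each control group served in a pair of these comparisons, as did each drought group, so the comparisons are not independent of one another.

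**Figure D3:**
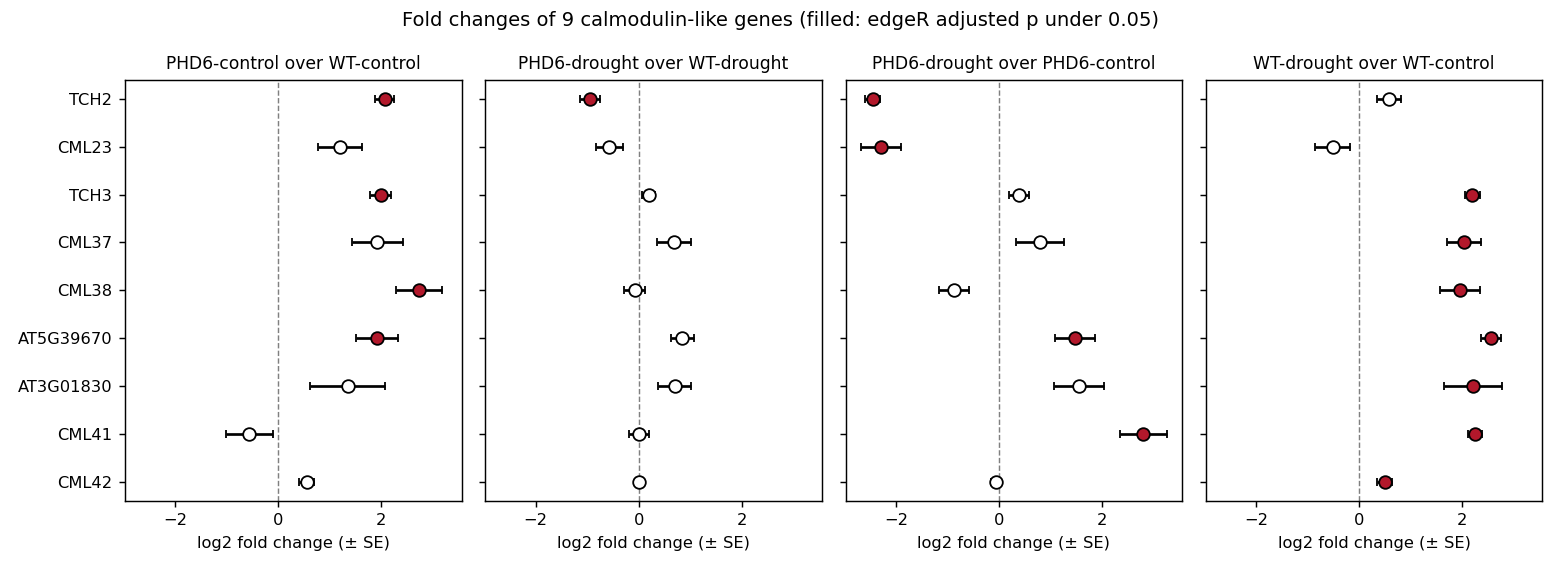
log2 fold change with SE of the 9 tested genes in each of the 4 pairwise comparisons, filled where the edgeR adjusted p was under 0.05. PHD6-control against WT-control and drought in WT run mainly to the right of 0, with medians of 1.91 and 2.04, while the genotypes under drought lie around 0.

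Whether drought changed the genes differently in the genotypes was tested as the drought change in transgenic plants minus that in WT. The difference was negative for 8 of the 9 genes and passed the test for 3, all lower, beside 5.6% of all genes called lower and 1.38% called higher. No gene of the 9 was called higher by edgeR, none at an unadjusted p under 0.05 (17.3% of all genes, either direction) and none by DESeq2. *TCH2* gave -3.02 (SE 0.31, edgeR adjusted p = 7.26e-05), *CML38* -2.82 (SE 0.51, adjusted p = 0.00367) and *TCH3* -1.80 (SE 0.26, adjusted p = 0.000826). Under the alternatives that could test them, these 3 had adjusted p up to 0.000389, 0.0125 and 0.00324 for *TCH2*, *CML38* and *TCH3*. *CML23* gave -1.78 (SE 0.57, adjusted p = 0.0916), and *CML41*, the 1 positive gene, 0.56 (SE 0.53, adjusted p = 0.668). The median was -1.24, beside 0.02 for all genes. For *TCH3* and *CML38* the difference lay mostly in the control groups, since the genotypes differed under drought by 0.19 and -0.08, while *TCH2* differed in both conditions with opposite sign.

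**Figure D4:**
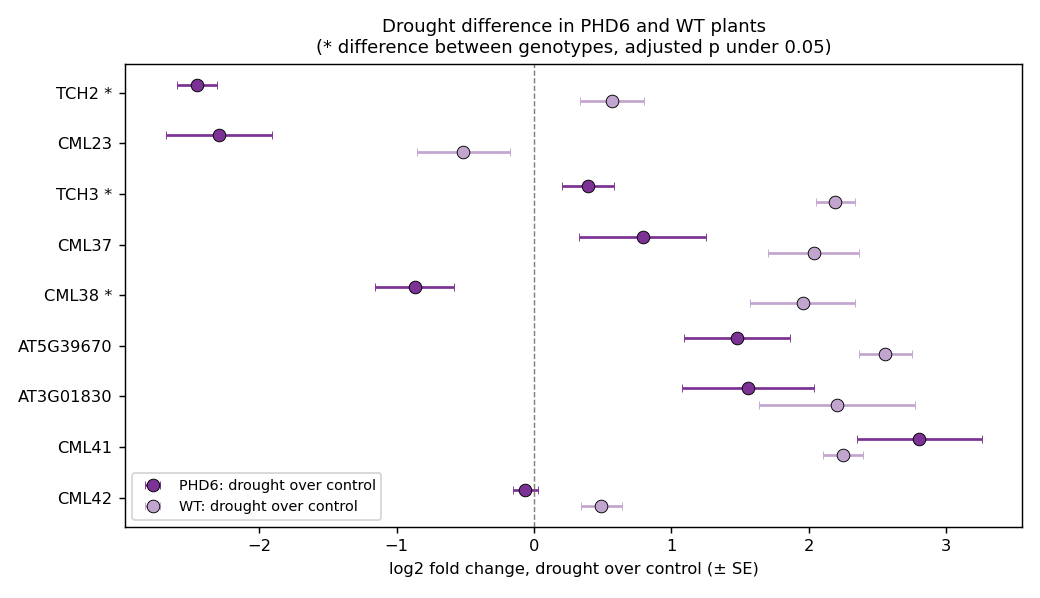
Drought log2 fold change with SE of each of the 9 tested genes, in transgenic plants and in WT, with an asterisk where the difference between them passed the test. *TCH2*, *TCH3* and *CML38* carry the asterisk, and *CML41* has changes of 2.80 in transgenic plants and 2.25 in WT.

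Levels were compared between genes as CPM per kilobase of exon, with the length taken over all annotated exons of a gene together. This length was 2008 bp for *TCH2*, with a coding sequence of 486 bp, against 975 bp for *CML23* and 981 bp for *CML42*. The ranks depend on this choice, and no other length was tried. *TCH3* was the highest in all 4 groups, with means of 148 in PHD6-drought, 131 in WT-drought, 113 in PHD6-control and 28.5 in WT-control, and its libraries did not overlap those of the next gene in any group. AT1G76640 was the lowest in all 4 groups. *TCH2* took rank 2 in both control groups (63.0 in PHD6-control, 15.1 in WT-control), rank 3 in WT-drought (22.3) and rank 5 in PHD6-drought (11.5). *CML41* took rank 2 in both drought groups, with 45.4 in PHD6-drought and 45.5 in WT-drought. *TCH2* overlapped *CML42*, its next neighbour in the order, in WT-control and in WT-drought, and overlapped AT5G39670 in PHD6-drought. In PHD6-control *TCH2* and *CML42* stood clear of their neighbours, whereas *CML23*, *CML41*, *CML38* and AT5G39670 overlapped one another in order. *CML42* in turn overlapped AT5G39670 in PHD6-drought. At the lower end each gene overlapped the next: AT3G01830, *CML37* and *CML38* in PHD6-drought, *CML38*, *CML23*, AT3G01830 and *CML37* in WT-drought, *CML37* and AT3G01830 in PHD6-control, and AT5G39670, *CML38*, AT3G01830 and *CML37* in WT-control.

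**Figure D5:**
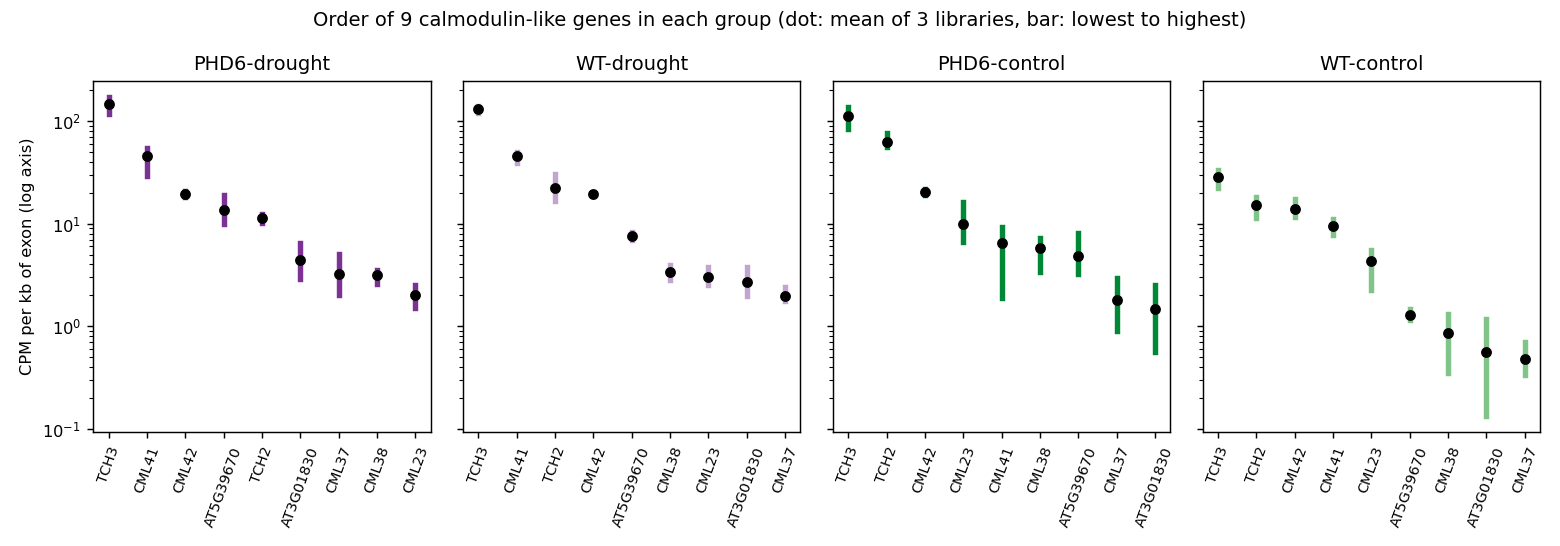
Mean CPM per kilobase of exon of the 9 tested genes in each group on a log axis, ordered within the group, with bars from the lowest to the highest of 3 libraries. *TCH3* leads in every group, and *TCH2* moves between rank 2 in both control groups and rank 5 in PHD6-drought.

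Of 47 other calmodulin and CML genes on the list, 44 were in the table and 31 were tested. Shares of all tested genes called higher and lower were 4.26% and 0.722% in PHD6-control, and 2.65% and 3.89% in PHD6-drought, each against WT. With drought they were 12.2% and 7.18% in WT and 9.49% and 12.7% in transgenic plants. For the difference between genotypes in the drought change they were 1.38% and 5.6%. The shares of all genes with an unadjusted p under 0.05 in either direction were 18.1% between the control groups, 32.1% with drought in WT and 17.3% for that difference. No such share is given for DESeq2. In PHD6-control against WT-control 8 rose and 0 fell (12 and 0 at an unadjusted p under 0.05, 8 and 0 in DESeq2), with a median of 0.25. Leaving out 1 library gave 3 to 7 higher: 3 when it was WT-control replicate 3, and 4 when it was replicate 1 or 3 of PHD6-control. Between the genotypes under drought, 1 was higher and 1 lower in PHD6-drought, but the count higher was 10 without PHD6-drought replicate 1 and 0 without WT-drought replicate 1, and the count lower was 0 without PHD6-drought replicate 2 or 3 or WT-drought replicate 1 or 2. Drought in WT raised 14 and lowered 0 (16 and 1 at an unadjusted p under 0.05, 16 and 0 in DESeq2), and drought in transgenic plants raised 10 and lowered 2. The 10 became 4 without PHD6-drought replicate 2, 2 with replicate 3 of PHD6-drought or replicate 1 of PHD6-control left out, and 1 with replicate 2 of PHD6-control left out. The 2 became 1 with PHD6-drought replicate 1 or 2 or PHD6-control replicate 1 left out. The difference between genotypes in the drought change was called lower for 4 and higher for 0 (6 and 0 in both the unadjusted edgeR test and DESeq2).

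*MSS3* (AT2G43290), another CML gene, had the group order of *TCH2*. It had 22.5, 25.7 and 21.7 CPM in PHD6-drought, against 53.0, 34.8 and 32.5 CPM in WT-drought. It had 116, 80.9 and 82.8 CPM in PHD6-control, against 32.4, 21.6 and 26.4 CPM in WT-control. The rise in PHD6-control over WT-control was 1.79 (edgeR adjusted p = 0.0015), and the drought change in transgenic plants was -2.0 (adjusted p = 0.000167). By contrast the conventional calmodulins *CAM1* and *CAM4*, which lie 4846 bp from *TCH2* and 2719 bp from *CML23*, stayed at 144 to 189 and 138 to 175 CPM in all 12 libraries. AT2G41090, 37 bp from *TCH3*, was 0.57 higher in PHD6-drought than in WT-drought (adjusted p = 0.0122), a call lost without WT-drought replicate 1 (0.54, 0.0624). AT3G29000, whose coding sequence was 77.5% identical to that of AT5G39670 over 555 bases, rose by 2.68 in PHD6-control over WT-control (adjusted p = 0.0117), and missed without WT-control replicate 3 (2.40, 0.0521).

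All 10 rapid touch and wound genes on the list, *TCH4* among them, were tested. Of all tested genes, 4.26% were called higher in PHD6-control than in WT-control and 12.2% higher with drought in WT. In transgenic plants drought lowered 12.7% and raised 9.49% of all tested genes. Between the control groups 18.1% of all tested genes had an unadjusted p under 0.05 in either direction. That share was not computed for drought in transgenic plants, and no share is given for DESeq2. In PHD6-control over WT-control 7 rose and 0 fell (10 and 0 at an unadjusted p under 0.05, 9 and 0 in DESeq2), with a median of 2.33, and 7 rose with drought in WT (median 1.14). In transgenic plants drought lowered 3 and raised 0 (4 and 0 at an unadjusted p under 0.05, 3 and 0 in DESeq2), with a median of -0.66. *TCH4* encodes a cell-wall enzyme and no CML. Like *TCH2*, it was higher in PHD6-control than in WT-control (log2 4.31, edgeR adjusted p = 1e-04) and lower in PHD6-drought than in WT-drought (log2 -2.39, adjusted p = 0.0122). Drought in WT also raised *TCH4* (log2 2.95, adjusted p = 0.00173), whereas *TCH2* was not called there in the main fit. Of the list, *TCH4* alone had every PHD6-drought library below every WT-drought library. For *WRKY33*, *WRKY40* and *WRKY53* every PHD6-drought library was above, and 28.4% of all genes did not overlap in either direction.

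Other genes of calcium signalling were counted by list. Beside these counts, 4.26% of all tested genes were called higher and 0.722% lower in PHD6-control than in WT-control. With drought in WT, 12.2% of all tested genes were called higher. In transgenic plants drought raised 9.49% and lowered 12.7%. Between the control groups 18.1% of all genes had an unadjusted p under 0.05 in either direction. The CAMTA genes, 6 in number, had 0 called in PHD6-control against WT-control by edgeR, 2 higher at an unadjusted p under 0.05 and 1 higher in DESeq2, while drought in WT raised 2, among them *SR1* (0.70, edgeR adjusted p = 0.000283). Of 24 calcium-dependent protein kinase (CPK) genes, 3 rose in PHD6-control over WT-control (6 in DESeq2, 5 without PHD6-control replicate 2) and 14 rose with drought in WT. Calcium pump genes rose in 2 of 9 cases in PHD6-control (1 when PHD6-control replicate 1 or WT-control replicate 2 or 3 was left out) and in 5 of 9 with drought in WT. Cyclic nucleotide-gated channel genes rose in 1 of 17 cases in PHD6-control (5 in DESeq2, 2 without PHD6-control replicate 2) and in 9 of 17 with drought in WT (5 and 3 without WT-drought replicate 2 and 3). Glutamate receptor-like channel genes rose in 2 of 15 cases in PHD6-control (0 when WT-control replicate 3 was left out, 1 when any of 4 other libraries was) and in 4 of 15 with drought in WT. The CBL calcium sensors, 7 genes, had 0 called in PHD6-control against WT-control by edgeR, at an unadjusted p under 0.05 or by DESeq2. Their partner kinases, 24 *CIPK* genes, had 1 higher (2 in DESeq2, and 2 when WT-control replicate 1 was left out) and 1 lower (0 when replicate 1 of PHD6-control or any WT-control library was left out). *CPK32* followed *TCH2* in direction, with 1.75 in PHD6-control over WT-control (edgeR adjusted p = 0.00255) and -1.44 with drought in transgenic plants (adjusted p = 0.00274). *CIPK15* did so as well (1.67, edgeR adjusted p = 0.00066, and -1.34, adjusted p = 0.000843). Other kinase genes on these lists went the other way with drought in transgenic plants. For *CPK6*, *CPK29* and *CIPK23* every PHD6-drought library was above every PHD6-control library, and 41.2% of all genes did not overlap in either direction. Counts of the kinase lists for that comparison are not given here.

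Profiles over the 12 libraries were compared as the root mean square (RMS) difference of centred log2 CPM. Nearest to the mean of the 9 genes came *ACA1*, a calcium pump gene, at 0.146, followed by AT1G69840 (0.173), *NAK* (0.178), *ERD6* (0.181), AT5G24210 (0.189) and *APK2A* (0.192). *ACA1* averaged 158 CPM in PHD6-drought and 137 CPM in WT-drought, with 134 CPM in PHD6-control and 54.2 CPM in WT-control. For single genes, *MYBR1*, a MYB transcription factor gene, was nearest to *TCH2* (0.158), AT4G11000 to *TCH3* (0.142), AT3G23170 to *CML23* (0.345), and *MPK11*, a MAP kinase gene, to *CML37* (0.285). AT3G29000 was nearest to *CML38* (0.338), *CRK39* to AT3G01830 (0.275), AT1G10340 to AT5G39670 (0.249) and *CAX3*, a calcium/proton exchanger gene, to *CML41* (0.484). *MYBR1* averaged 27.4 CPM in PHD6-drought and 62.1 CPM in WT-drought, with 162 CPM in PHD6-control and 41.5 CPM in WT-control. *CAX3* averaged 98.0 CPM in PHD6-drought and 105 CPM in WT-drought, with 23.3 CPM in PHD6-control and 26.3 CPM in WT-control. Among the 9 genes themselves, *TCH3* and *CML37* were the nearest pair (0.432), then *CML37* and AT5G39670 (0.470) and *TCH2* and *CML23* (0.496), while *CML23* and *CML41* were the farthest apart (2.19).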

How the data were processed

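RNA-seq libraries from rosette leaves were sequenced for 12 samples, 3 in each of 4 groups that were taken from the sample labels. The authors deposited raw gene counts. Per the labels, the tools were HISAT2 2.0.5 for alignment, featureCounts 1.5.0-p3 for counting and DESeq2 1.16.1; whether strand was used in counting was not given in the sources used here. Of 38082 entries, 2021 had no gene name (0.387 to 0.463% of counts) and entered neither the library sizes nor the tests. Counts over named genes were 17839925 to 24717357 per library, which set the precision for genes with few reads.

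Genes with enough counts in edgeR 4.0.16 (filterByExpr, minimum count 10, over the 4 groups) were kept, scaled by TMM and tested by quasi-likelihood in R 4.3.3, with only the compared groups in each fit and all 12 libraries for the difference between genotypes in the drought change. P-values were adjusted by the Benjamini-Hochberg method over 19681 genes, with a threshold of 0.05. The code was tested on simulated data. CPM used the TMM scaling over all libraries. DESeq2 1.42.0, other scalings and filters, a replicate block and leaving out each library were the alternatives. In WT-drought against WT-control the deviations of same-numbered libraries correlated (r = 0.348, 0.148 and 0.142 over genes). This comes from the data and not from the labels, so whether the numbers pair these samples stayed unsettled. The main fit left the samples unpaired, with the replicate block as an alternative.

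The genes and lists were chosen with earlier results of these data known. All 10 genes are described, with up to 4 called genes per list and comparison by smallest p, family genes next to them, the nearest profiles and *TCH4*; few of the list genes are named. Promoter windows and coding sequence were read from the TAIR10.1 genome and its RefSeq annotation, in place of a promoter table, because 935 of 936 positions in the study's gene lists equal those of TAIR10.1. An EF-hand loop was counted where 12 translated residues began with aspartate, ended with aspartate or glutamate and met the family's pattern between them. The next residue also had to be hydrophobic.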

Additional observations from a re-analysis of the deposited data

Results flagged for a closer look

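The drought change differed between transgenic plants and WT, by edgeR's test of that difference adjusted over all 19681 genes, for 3 of the 9 tested calmodulin-like genes. The difference was -3.02 for *TCH2* (adjusted p = 7.26e-05), -1.80 for *TCH3* (0.000826) and -2.82 for *CML38* (0.00367).

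Among the other genes named, the same test passed for *MSS3* (-2.58, edgeR adjusted p = 0.000104), AT3G25600 (-1.44, 0.000772) and AT3G29000 (-2.31, 0.0178) of the calmodulin family. It also passed for *TCH4* (-6.71, 2.23e-05), *CIPK15* (-2.69, 2.82e-05) and *CPK32* (-2.17, 0.000168). Of the genes with the nearest profiles, which were chosen for their likeness to the calmodulin-like genes over these same 12 libraries, so that the shared sign is no separate result, the difference was called for *MYBR1* (-3.15, 7.39e-05), AT3G23170 (-2.04, 0.00234), AT4G11000 (-1.63, 0.0017) and *ACA1* (-1.10, 0.00378). A negative value means a lower change with drought in transgenic plants than in WT.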

How the results depend on the processing

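In PHD6-control against WT-control, 7 of the 9 genes were higher with DESeq2 and 2 with a filter of at least 1 CPM in all 12 libraries, which passed fewer of them, against 4, and 3 to 5 with 1 library left out. In PHD6-drought against WT-drought, 1 was higher with upper-quartile scaling, with DESeq2 and with no filter, and 0 to 2 with 1 library left out, against 0. The count lower there was 0 at the study's thresholds (a fold over 2 and an unadjusted p under 0.05) and 0 to 1 with 1 library left out, against 1. In WT drought raised 3 with the 1 CPM filter and 5 to 6 with 1 library left out, against 7, and lowered 0 to 1. In transgenic plants drought raised 1 with the 1 CPM filter, 4 with the replicate number as a block and 1 to 3 with 1 library left out, against 2, and lowered 2 to 3, against 2. The difference between genotypes in the drought change was called lower for 3 to 4. DESeq2 added calls for *CML23* (adjusted p = 0.0378), *CML37* (0.00687) and *CML42* (0.0316) between the control groups, for AT5G39670 (0.00483) between the drought groups, and for *CML38* (0.0281, lower) and AT3G01830 (0.00366) with drought in transgenic plants.

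In the other comparisons the same-numbered libraries did not all correlate positively. Their r was -0.522 to -0.00392 between the control groups and -0.159 to -0.0255 between the drought groups. In transgenic plants it was -0.136, 0.164 and 0.281. Beside *TCH2* in WT (0.55, adjusted p = 0.0104), the block added calls in transgenic plants for *CML37* (adjusted p = 0.0252), *CML38* (0.0281) and AT3G01830 (0.0119), and for *CML23* in the difference between genotypes (0.0151).

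Values that were called in no setting changed sign in 14 cases. Between the genotypes under drought, *CML41* was -0.0016 with upper-quartile scaling, -0.0015 with no filter, -0.0028 with all 12 libraries fitted together and -0.030 with the block, and ran from -0.15 to 0.24 with 1 library left out. *CML42* there was -0.0019 with all 12 libraries and ran from -0.045 to 0.055 with 1 library left out, and *CML38* from -0.20 to 0.052. With drought in transgenic plants *CML42* was 0.0014 without PHD6-control replicate 3 (range -0.11 to 0.0014), and in the difference between genotypes AT3G01830 ran from -1.84 to 0.016. The cause was not tested.

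Over all genes, with the range over the alternatives in parentheses, 839 (446 to 1262) higher and 142 (55 to 336) lower were called in PHD6-control against WT-control, 521 (68 to 1557) higher and 765 (148 to 1218) lower were called in PHD6-drought against WT-drought. Drought gave 2406 (953 to 2627) higher and 1413 (275 to 2361) lower in WT-drought against WT-control and 1867 (643 to 2313) higher and 2496 (459 to 2756) lower in PHD6-drought against PHD6-control. For the difference between genotypes in the drought change the counts were 271 (142 to 491) higher and 1102 (725 to 1224) lower. With upper-quartile scaling 46.9% of the WT drought calls were higher, against 63.0%, and 32.8% of the calls of the difference between genotypes, against 19.7%. At this depth AT1G76640 had too few counts to be tested.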
